A study of Mus musculus with 12 samples.

Results

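The calvaria of 6 normal newborn mice were compared, 3 control mice from the cross that carries the conditional *Med23* deletion and 3 WT mice from the cross that carries the *Runx2* null allele. These 6 libraries are the normal animals among the 12 mice sequenced, and they were chosen by their labels alone. The labels give all 6 as WT, C57BL/6 and newborn. Per the study's methods, RNA came from the parietal bone 2 days after birth, and the controls were littermates of mice in which *Prx1-Cre*, active in craniofacial mesenchyme, deleted a floxed *Med23* allele, and figure legends give such controls as *Med23* fl/fl. The floxed line was made by homologous recombination in embryonic stem cells and then backcrossed, whereas the *Runx2*+/- line came from another laboratory. Since all control mice came from one cross and all WT mice from the other, genetic background, litter, dissection and batch cannot be told apart. The other 6 mice, labelled *Med23*-deleted and *Runx2*+/-, are used only to see whether a difference between the crosses was also present in a second group of animals. Values are FPKM, fragment counts scaled by transcript length and sequencing depth, summed over the RefSeq transcripts of each gene. A gene was tested when it reached 1 FPKM in at least 3 of the 6 normal mice, which held for 12606 of 23715 genes.

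The parietal bone is a flat bone of the skull vault that forms by direct ossification of mesenchyme, without a cartilage model. Osteoblasts on its surfaces secrete type I collagen, osteocalcin and other matrix proteins and mineralise them, osteoclasts resorb the matrix, and blood-forming tissue occupies the growing marrow spaces. Muscle attaches to the skull, and brain coverings, periosteum and skin lie against it, so that a dissected piece may carry them. In bulk tissue, fewer cells of a type and less RNA per cell cannot be told apart.

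The 6 libraries were close to each other. Pearson's r over genes was 0.978 to 0.989 between mice of the same cross and 0.966 to 0.987 between mice of different crosses. The sum of FPKM per library was 891329 to 1068933, and the size of the smallest values corresponded to an estimated 8990000 to 11870000 fragments per normal mouse. Of the tested genes, 11730 (93.1%) reached 1 FPKM in all 6 mice. Just 15 genes (0.119%) were tested because of the control mice alone, with no WT mouse at that level, and 24 (0.19%) because of the WT mice alone.

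Ribosomal protein genes held a large share of the FPKM of normal newborn parietal bone, and several bone matrix genes were also among the most abundant. By mean FPKM over the 6 mice, 12611 genes reached 1 FPKM, 6265 reached 10, 1035 reached 100 and 154 (0.649% of all genes) reached 1000. The 10 most abundant genes held 14.7% to 16.1% of all FPKM in a mouse and the top 100 held 48.9% to 51.8%. Of the top 25, 14 encode ribosomal proteins, led by *Rpl39*, *Rpl41* and *Rplp1*, and 2 are transcripts that the reference tables do not pair with a gene name, which together took 5.45% to 6.75%. The 100 genes of the *Rpl*, *Rps* and *Rplp* series took 29.3% to 33.2% of the FPKM of each mouse.

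*Spp1*, which encodes the matrix phosphoprotein osteopontin, was the most abundant named gene. It had 19127, 11569 and 16225 FPKM in the control mice and 19135, 15059 and 19342 FPKM in the WT mice. The crosses overlapped, and control mouse 2 was the lowest. *Bglap*, which encodes osteocalcin, a small matrix protein made by mature osteoblasts, had 8757, 11663 and 8789 FPKM in the control mice and 8161, 8179 and 5197 FPKM in the WT mice, with every control mouse above every WT mouse. It lies beside the near-copy *Bglap2* at chr3:88383495-88384466, so that reads could be divided between them, and *Bglap2* had 3456 to 5556 FPKM.

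Type I collagen is the main protein of bone. *Col1a1* had 5692, 9193 and 6876 FPKM in the control mice and 4256, 6691 and 3397 FPKM in the WT mice, so that the groups overlapped. Its partner chain gene *Col1a2* had 4983 to 10213 FPKM over the 6 mice, and both chains were highest in control mouse 2 and lowest in WT mouse 3. The pair took 1.30%, 2.18% and 1.63% of FPKM in the control mice and 1.00%, 1.58% and 0.784% in the WT mice. *Sparc*, which encodes the collagen-binding protein osteonectin, had 7274, 8212 and 7879 FPKM in the control mice and 5672, 7120.3 and 5313 FPKM in the WT mice, and these did not overlap. The remaining genes of the top 25 included the adult globins *Hbb-bs* (7429.7 ± 617 FPKM, SD, n = 6) and *Hba-a1* (6189 ± 852 FPKM, SD, n = 6), the translation factor *Eef1a1* and *Tpt1*, which encodes translationally controlled tumour protein. Globin genes together held 1.62% to 2.24% of FPKM.

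**Figure D1:**
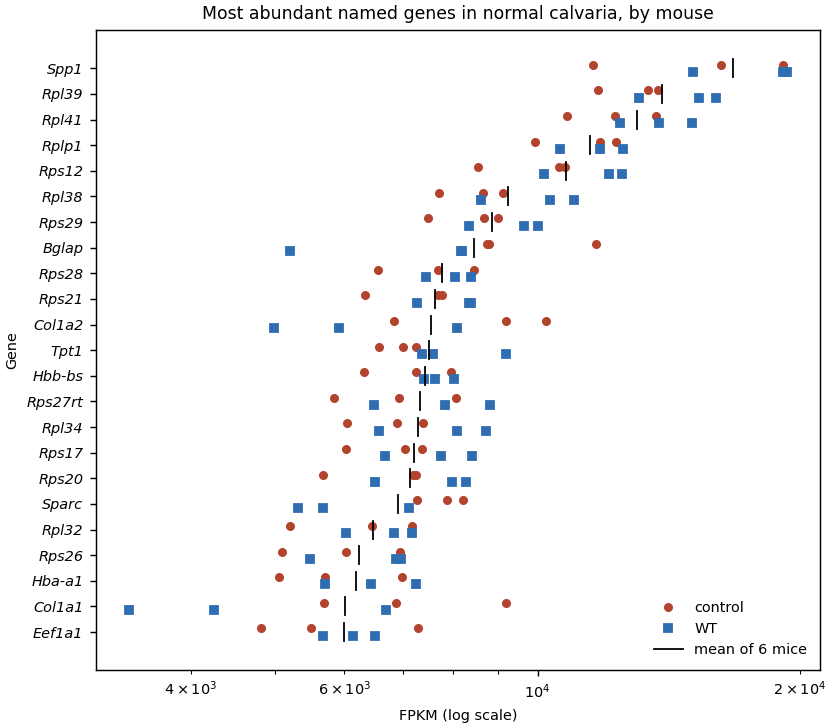
Levels of the 23 named genes among the 25 most abundant genes in normal newborn calvaria, with FPKM on a log axis, a circle for each of 3 control mice, a square for each of 3 WT mice and a bar at the mean of the 6. Neighbouring genes overlapped in 23 of the 24 steps of the full order, and *Col1a1* and *Col1a2* spread more widely than the ribosomal protein genes.

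The order within this top group is therefore loose. The coefficient of variation over the 6 mice ranged from 8.30% to 34.3% (median 13.3%), with *Col1a1* at the upper end, and in 23 of the 24 steps from one gene to the next the ranges of the 6 mice overlapped. The list of 18 osteoblast matrix genes together held 6.16%, 7.07% and 6.17% of FPKM in the control mice and 5.25%, 5.93% and 4.43% in the WT mice. Levels of the regulators of the osteoblast lineage were far lower. *Runx2*, the transcription factor that commits mesenchyme to bone, had 33.6 ± 4.87 FPKM over the 6 mice (SD, n = 6), and *Sp7*, which encodes osterix and acts downstream of it, had 65.1 ± 12.2 FPKM (SD, n = 6). Of the osteocyte genes, *Dmp1*, an acidic matrix protein gene, had 179 to 307 FPKM and *Sost*, the gene for the WNT inhibitor sclerostin, 7.25 to 18.1 FPKM. The defining markers of bone were thus present in all 6 mice.

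Blood and bone-resorbing cells were also well represented. The summed level of the erythroid list was 15755 to 21431 FPKM and that of the osteoclast list 4784 to 8498 FPKM. *Ctsk*, which encodes the collagen-degrading protease cathepsin K, had 3269 ± 739 FPKM over the 6 mice (SD, n = 6), and the tartrate-resistant phosphatase gene *Acp5* had 1897 ± 424 FPKM (SD, n = 6). *Igf2*, the imprinted fetal growth factor gene, was at 2050.3 ± 84.4 FPKM (SD, n = 6) and varied little between mice. Lymphoid and epidermal genes were low. The summed level of the lymphoid list was 4.51 to 9.54 FPKM and that of the epidermis and hair list 7.44 to 15.1 FPKM. Of the epidermal genes, *Ivl* and *Dsg1a* were listed at 0 in all 6 mice and the keratin genes *Krt5* and *Krt14* reached at most 0.0848 and 0.119 FPKM. *Cd3e*, the T cell receptor component, was above 0 in 1 mouse alone, at 0.102 FPKM in WT mouse 2.

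Variation between normal mice of the same cross was small for most genes and very large for a few. The pooled standard deviation within a cross, on the scale of log2(FPKM + 1) with 4 degrees of freedom, had a median of 0.14 over the tested genes, with quartiles of 0.10 and 0.20. It was above 0.5 for 362 genes (2.87%), above 1 for 82 (0.65%) and above 2 for 15 (0.119%). Among the 8699 genes with a mean of at least 5 FPKM, the 20 most variable were 7 genes of the skeletal muscle list, *Sln* of muscle, *Xist* with the Y-linked genes *Eif2s3y* and *Ddx3y*, 6 genes of small RNAs, 2 histone genes and 1 predicted gene.

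The greatest variation was in genes that mark sex, which the labels do not give. *Xist*, the RNA that silences one X chromosome in female cells, had 0.0187, 49.1 and 37.8 FPKM in the control mice and 42.4, 0.0663 and 0.0338 FPKM in the WT mice. *Ddx3y*, a Y-linked RNA helicase gene, had 32.0, 0.0760 and 0.0531 FPKM in the control mice and 0.0236, 30.9 and 32.5 FPKM in the WT mice. The 2 genes thus divided the mice in opposite ways, with 2 *Xist*-positive control mice and 1 *Xist*-positive WT mouse. All 6 mutant mice had *Ddx3y* at 35.0 FPKM or more and *Xist* at 0.0578 FPKM or less. *Kdm6a*, which escapes X inactivation, followed *Xist*, with 5.33, 7.02 and 7.85 FPKM in the control mice and 8.55, 4.70 and 4.21 FPKM in the WT mice.

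Skeletal muscle genes differed between normal mice by orders of magnitude. The summed level of the 20 genes was 1645, 33.2 and 385 FPKM in the control mice and 2346, 2259.6 and 6734 FPKM in the WT mice, a 203-fold span. The crosses did not overlap, but control mouse 1 stood nearer to WT mice 1 and 2 than to control mouse 2. *Acta1*, the skeletal muscle actin gene, had 254, 2.49 and 51.1 FPKM in the control mice and 220.4, 259.6 and 689 FPKM in the WT mice. *Mylpf*, a fast muscle myosin light chain gene, had 427, 6.58 and 100.1 FPKM in the control mice and 631, 629 and 1837 FPKM in the WT mice. The muscle genes *Myl1*, *Ckm*, *Tnnc2*, *Tnni2*, *Tnnt3* and *Sln* were likewise lowest in control mouse 2 and, in the WT cross, highest in mouse 3. At the low end, *Myog*, which drives the differentiation of muscle precursors, was listed at 0 in control mouse 2 and had 6.99 FPKM in WT mouse 3. Within the WT mice alone the summed muscle level thus spanned 2259.6 to 6734 FPKM, and within the control mice 33.2 to 1645 FPKM.

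Short RNAs made up most of the remaining top group. *Snora7a* had 7.60, 15.6 and 0 FPKM in the control mice and 21.1, 0 and 18.3 FPKM in the WT mice, and *Snora52*, *Snora16a*, *Snora17*, *Snora28* and *Mir7-1* were also listed at 0 in at least 1 mouse of these 6. Such genes are about as short as a sequenced fragment, so that few fragments decide their FPKM. The histone genes *H2ac11* and *H2bc13* belong to families of near-identical copies and were close to 0 in some mice and at 14.6 and 22.4 FPKM in others, which leaves their levels uncertain.

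Other cell types also differed from mouse to mouse, without a common pattern. These genes were picked after their values were seen. *Adipoq*, the adipocyte hormone gene, had 21.3 FPKM in control mouse 3 and 2.90 to 4.26 FPKM in the other 5 mice, and *Cfd*, the gene for the adipocyte protease adipsin, had 13.2 FPKM there against 2.24 to 2.98 FPKM. The cartilage matrix gene *Matn1* had 16.0 FPKM in control mouse 1 and 0.798 to 5.53 FPKM elsewhere. *Oscar*, an osteoclast receptor gene, was also highest in control mouse 1, at 54.6 FPKM against 17.5 to 25.6 FPKM. That mouse had the highest summed osteoclast level, 8498 FPKM against 4784 to 6694 FPKM, and the lowest summed cell cycle level, 384 FPKM against 537 to 596 FPKM. *S100a8*, a neutrophil granule protein gene, had 112, 387 and 102 FPKM in the control mice and 179.7, 267 and 265 FPKM in the WT mice, so that control mouse 2 lay above and the other control mice below every WT mouse. The neuronal genes *Snap25* (3.65 FPKM) and *Neurod1* (2.23 FPKM) were above 1 FPKM in WT mouse 1 alone. *Ptgds*, which encodes a prostaglandin synthase abundant in brain coverings, ranged from 8.65 to 55.5 FPKM over both crosses.

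**Figure D2:**
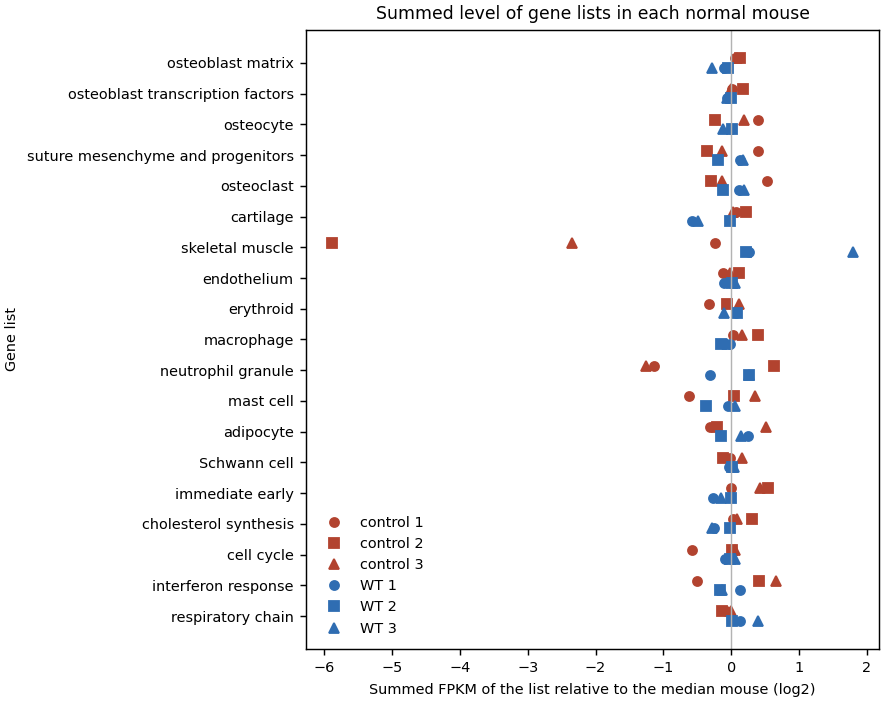
Summed FPKM of 19 gene lists in each normal mouse, relative to the median mouse and on a log2 axis, with control mice in red, WT mice in blue and a circle, square or triangle for mouse 1, 2 or 3 of each cross. The skeletal muscle list has by far the widest spread, from 33.2 FPKM in control mouse 2 to 6734 FPKM in WT mouse 3, and the neutrophil list follows with 236 to 876 FPKM.

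To ask what differed between normal mice of the crosses, log2(FPKM + 1) was fitted for all tested genes with limma, and a gene was called at a Benjamini-Hochberg adjusted p under 0.05. Differences are given as control minus WT on that scale, which understates the change of low genes. Very few genes passed. Of 12606 genes, 5 (0.0397%) were called, 3 (0.0238%) higher in the control mice and 2 (0.0159%) higher in the WT mice. All but *Tdg*, that is 4 of the 5, were tested only through the cross in which they were high, with no mouse of the other cross at 1 FPKM, so that a difference was built into their selection. With 1 FPKM required in all 6 mice, 1 gene was called. Without adjustment, 1191 genes (9.45%) had a p under 0.05, of which 282 (2.24%) were higher in the control mice and 909 (7.21%) higher in the WT mice. The lean to WT mice depended on scaling, since with the same FPKM sum in each mouse 437 genes were higher and 476 lower in the control mice, and with median-ratio scaling 467 and 609. In 491 genes (3.89%) all control mice lay above all WT mice and in 1361 (10.8%) below. The median difference over all tested genes was -0.03.

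The call with the smallest p was *Tdg-ps2*, a transcribed pseudogene copy of *Tdg* that was tested through the control mice alone. It had 10.8, 13.3 and 10.4 FPKM in the control mice and 0.0300, 0 and 0 FPKM in the WT mice, a difference of 3.62 (SE 0.12, limma adjusted p = 2.5e-05). *Tdg* itself, which encodes the thymine DNA glycosylase that removes mismatched and oxidised pyrimidines, went the other way. It had 8.91, 7.95 and 8.0 FPKM in the control mice and 16.7, 16.9 and 17.5 FPKM in the WT mice, a difference of -0.96 (SE 0.09, limma adjusted p = 0.0118). Neither gene overlapped between the crosses. In the *Tdg* and *Tdg-ps2* transcripts of GENCODE M21 (GRCm38), 1185 of 1194 aligned bases were identical (99.2%). The stretch of 60 bases that holds the most differences is shown to make plain how little sets reads of the 2 genes apart, 5′ to 3′, with the 4 differing bases in capitals. The *Tdg* stretch, bases 1203 to 1262 of its 2959-base transcript, lies in the coding sequence (bases 162 to 1352), and the *Tdg-ps2* stretch covers bases 1042 to 1101 of 1194.
Tdg: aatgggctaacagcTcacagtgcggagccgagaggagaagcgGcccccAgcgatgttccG
Tdg-ps2: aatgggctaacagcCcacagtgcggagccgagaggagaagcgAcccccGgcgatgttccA

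How reads shared by the copies were assigned is not given in the sources used here, so that each level alone is uncertain. The *Tdg-ps2* model compared here, of 1194 bases, covers only part of *Tdg*, but the *Tdg-ps2* locus given below is longer than that model. Whether *Tdg* has bases of its own in the RefSeq transcripts behind these FPKM was not tested. When the FPKM of *Tdg* and *Tdg-ps2* were added up, the control mice had 19.7, 21.2 and 18.4 FPKM and the WT mice 16.7, 16.9 and 17.5 FPKM. The sum still did not overlap between the crosses, but its difference was 0.20 (SE 0.09, limma adjusted p = 0.529). Both genes lie on the chromosome of *Med23*, *Tdg-ps2* at chr10:42052558-42055453 and *Tdg* at chr10:82629814-82650799, with *Med23* at chr10:24869986-24913529.

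A second pair of near-identical genes on that chromosome had the same form without passing the test. *Amd2*, at chr10:35708691-35711891, had 2.45, 1.00 and 3.23 FPKM in the control mice and 0.000868, 0.00117 and 0.00221 FPKM in the WT mice, a difference of 1.62 (SE 0.26, limma adjusted p = 0.171). Its parent gene *Amd1*, which encodes S-adenosylmethionine decarboxylase of polyamine synthesis, had 20.5, 17.2 and 15.2 FPKM in the control mice and 24.7, 19.1 and 23.8 FPKM in the WT mice, which overlapped. Their transcripts were identical at 3190 of 3204 aligned bases (99.6%). Added up, the difference of *Amd1* and *Amd2* was -0.17 (SE 0.13, limma adjusted p = 0.732).

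The remaining calls were of low level. Of the alternative fits that tested them, *Tdg-ps2* was called in 16 of 16, *Tdg* in 6 of 18 and the low-level NM_010400 in 8 of 17. Of all the calls, only *Tdg* was tested in the fit with 1 FPKM required in all 6 mice. NM_021304, which the tables used here do not pair with a gene name, had 4.65, 4.95 and 4.83 FPKM in the control mice and 0.375, 0.125 and 0.0153 FPKM in the WT mice (difference 2.32, limma adjusted p = 0.000953). NM_010400, also unpaired with a name, had 1.64, 2.58 and 2.01 FPKM in the control mice and 0.0399, 0 and 0 FPKM in the WT mice (difference 1.59, limma adjusted p = 0.0199). Both were tested through the control mice alone, so that a gap between the crosses was built into their selection. Unnamed transcripts as a whole were also frequent among the lower p-values, with 23 of 134 (17.2%) under 0.05 before adjustment against 9.45% of all genes. *Snora78*, a small nucleolar RNA gene, was listed at 0 in the 3 control mice and had 4.39, 5.47 and 6.24 FPKM in the WT mice (difference -2.66, limma adjusted p = 4.5e-04). It lies inside *Snhg9* at chr17:24719531-24719965, and *Snhg9* had 18.8, 21.4 and 31.8 FPKM in the control mice and 15.1, 0 and 0 FPKM in the WT mice. The nested genes thus had differences of opposite sign, and their overlap leaves both uncertain.

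**Figure D3:**
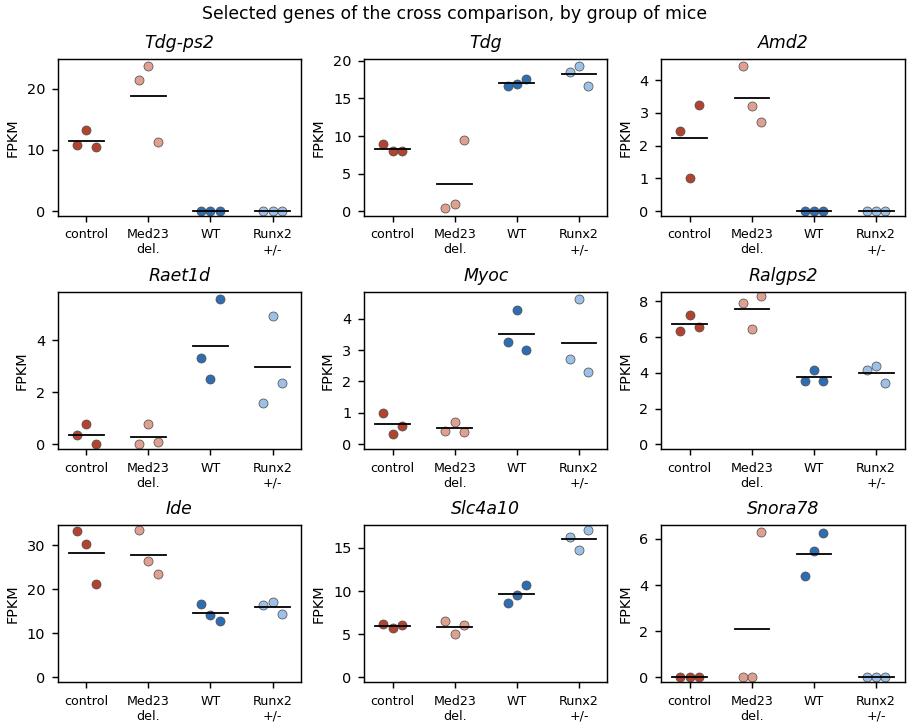
FPKM of 9 genes in every mouse, in 4 columns for the control, *Med23*-deleted, WT and *Runx2*+/- mice (3 mice each), with a line at each mean. *Tdg-ps2*, *Amd2*, *Ralgps2* and *Ide* are higher in both groups of the *Med23* cross, *Tdg*, *Raet1d*, *Myoc* and *Slc4a10* in both groups of the *Runx2* cross, and *Snora78* is above 0 in WT mice and 1 *Med23*-deleted mouse.

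Beyond the 5 calls, the genes with the smallest p in each direction did not pass the adjusted threshold, and their values are given as such. *Ralgps2*, which encodes a guanine nucleotide exchange factor, had 6.35, 7.23 and 6.58 FPKM in the control mice and 3.54, 4.16 and 3.54 FPKM in the WT mice (difference 0.70, limma adjusted p = 0.161). *Ide*, which encodes insulin-degrading enzyme, had 33.2, 30.2 and 21.1 FPKM in the control mice and 16.6, 14.2 and 12.8 FPKM in the WT mice (difference 0.89, limma adjusted p = 0.29). The groups of both genes, which were chosen by small p, were apart, and the WT mice were the lower. That held for 3.89% of all tested genes. *Slc8a3*, a sodium-calcium exchanger gene, had 12.2, 12.5 and 12 FPKM in the control mice against 8.26, 8.76 and 7.84 FPKM in the WT mice. *Pisd-ps3*, *Wfdc17*, *H1f2*, *Plaur* and *Nr4a1* completed the control-higher group, with differences of 0.55 to 1.12 and adjusted p-values of 0.161 to 0.292.

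In the other direction, *Myoc*, which encodes the secreted glycoprotein myocilin, had 1.01, 0.314 and 0.594 FPKM in the control mice and 3.27, 4.29 and 2.99 FPKM in the WT mice (difference -1.47, limma adjusted p = 0.107). *Raet1d*, a gene for a ligand of the NKG2D receptor of natural killer cells, had 0.341, 0.789 and 0 FPKM in the control mice and 3.31, 2.51 and 5.58 FPKM in the WT mice (difference -1.79, limma adjusted p = 0.161). Its neighbour *Raet1e*, chosen after its values were seen, had at most 0.0123 FPKM in the control mice and 0.912 to 2.45 FPKM in the WT mice and was too low to be tested. *Gas5*, a long non-coding RNA gene that hosts small nucleolar RNAs, had 23.6, 15.7 and 21.2 FPKM in the control mice and 45.7, 34.9 and 41.8 FPKM in the WT mice (difference -0.99, limma adjusted p = 0.171). All of these were apart between the crosses, as were 10.8% of all tested genes in this direction. Being apart follows in part from the choice by small p, and *Raet1d* was tested through the WT mice alone. *Tmem267*, *Zfp959*, *Zfp982*, *Churc1* and *H4c12* had differences of -2.51 to -0.59 and adjusted p-values of 0.15 to 0.161. *H4c12*, a histone gene of a near-identical family, was at 0.00001 FPKM or listed at 0 in the control mice, and only *Churc1* of these exceeded 20 FPKM in every mouse.

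Mutant mice of the same crosses gave a look at these genes in animals that the comparison of normal mice had not used, although their genotypes differ as well. *Med23* had 5.99, 5.42 and 4.54 FPKM in the control mice, 5.18, 5.85 and 4.72 FPKM in the WT mice and 4.89, 5.74 and 5.28 FPKM in the libraries labelled *Med23*-deleted. *Runx2* had 38.0, 38.0 and 30.5 FPKM in the control mice, 29.8, 37.7 and 27.3 FPKM in the WT mice and 34.3, 30.4 and 35.7 FPKM in the libraries labelled *Runx2*+/-. Both genes overlapped between the normal mice, and neither was lower in its own mutant group, so that summed FPKM does not check these labels, which are used here only as names. *Tdg-ps2* had 21.4, 23.7 and 11.4 FPKM in the *Med23*-deleted libraries and at most 0.0143 FPKM in the *Runx2*+/- libraries (difference 4.24, limma adjusted p = 0.00200), and *Tdg* had 0.449, 0.920 and 9.50 FPKM against 18.6, 19.3 and 16.7 FPKM. NM_021304 and NM_010400 differed in the same direction as in normal mice (limma adjusted p = 0.0237 and 0.00587). *Snora78* did not, being listed at 0 in the *Runx2*+/- libraries and in 2 of the *Med23*-deleted libraries. *Myoc* was lower in the *Med23*-deleted than in the *Runx2*+/- libraries (difference -1.45, limma adjusted p = 0.0438), as was *Slc4a10*, a bicarbonate transporter gene chosen after its values were seen (difference -1.32, limma adjusted p = 0.00586). In normal mice *Slc4a10* had 6.16, 5.74 and 6.07 FPKM in controls and 8.65, 9.56 and 10.7 FPKM in WT mice, without overlap.

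Across all genes, the normal and the mutant comparison had the same direction for 6100 of 12606 genes (48.4%), and 139 (1.1%) had an unadjusted p under 0.05 in both with the same direction. Of the 282 genes higher in control mice at that level, 153 (54.3%) had the same direction in mutants and 43 (15.2%) also a p under 0.05 there. Of the 909 higher in WT mice, 376 (41.4%) had the same direction and 96 (10.6%) also such a p. Over all tested genes 911 (7.23%) had a p under 0.05 in mutants with the direction of the normal mice, and the mutant comparison by itself called 65 genes (0.516%) after adjustment. Of these, 27 (0.214%) were higher and 38 (0.301%) lower in the *Med23*-deleted libraries, against 9.42% and 7.04% of genes before adjustment.

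With all 12 mice ranked together, 25 genes (0.198%) had every mouse of the *Med23* cross above every mouse of the *Runx2* cross, and 73 (0.579%) the reverse. The higher group included *Tdg-ps2*, *Amd2*, *Ralgps2*, *Ide*, *Slc8a3*, *Fgfbp3* and the osteoblast membrane protein gene *Ifitm5*. *Ifitm5* had 522, 387 and 454 FPKM in the control mice and 374, 329.8 and 331 FPKM in the WT mice. The lower group included *Tdg*, *Raet1d*, *Myoc*, *Slc4a10*, the bone-derived hormone gene *Ostn*, the growth factor genes *Fgf2* and *Igf1*, and *Omd*, which encodes the matrix proteoglycan osteomodulin. *Ostn* had 30.2, 48.6 and 48.0 FPKM in the control mice and 62.6, 58.1 and 60.5 FPKM in the WT mice (difference -0.54, limma adjusted p = 0.416). *Igf1* had 87.8, 85.9 and 86.9 FPKM against 104, 103 and 96.0 FPKM (difference -0.21, limma adjusted p = 0.463). Among normal mice alone, none of these bone genes passed the adjusted threshold, and they were picked from the group after their values were seen.

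**Figure D4:**
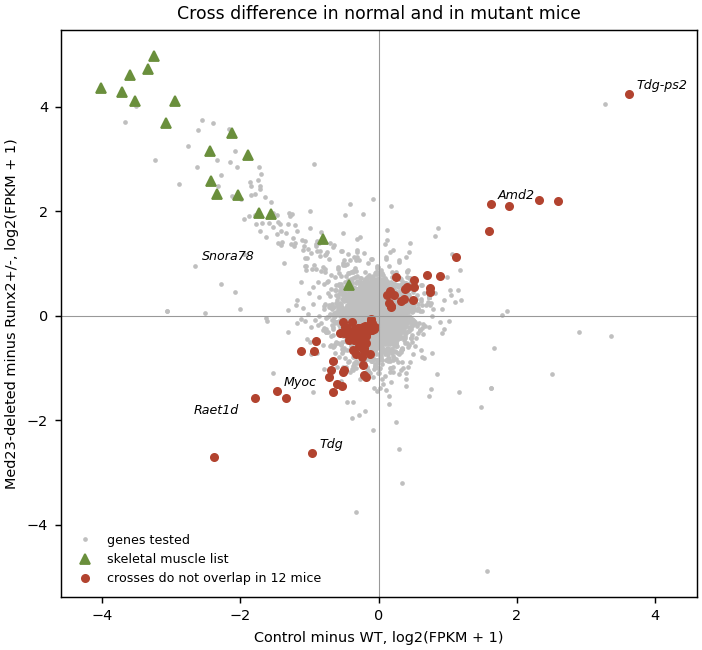
Difference between the crosses in normal mice (control minus WT, horizontal axis) and in mutant mice (*Med23*-deleted minus *Runx2*+/-, vertical axis), both on the log2(FPKM + 1) scale, with a point per tested gene. Red points, the 98 genes whose crosses do not overlap over 12 mice, lie in the 2 quadrants of equal sign, as that criterion requires, and green triangles, the skeletal muscle list, lie in the quadrant that is lower in control and higher in *Med23*-deleted mice.

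Positions were then compared with the engineered loci. Within 20 Mb of *Med23*, 20 of 137 tested genes (14.6%) had an unadjusted p under 0.05 and 8 (5.84%) did not overlap between the crosses in 12 mice, against 9.45% and 0.777% of all tested genes. Of these 8, *Tdg-ps2*, *Amd2* and *Raet1d* were tested through 1 cross alone. Among genes at 1 FPKM in all 6 mice, the share within 20 Mb at an unadjusted p under 0.05 was 11.2%, against 9.23% of all such genes. Within 10 Mb the counts were 9 of 59 (15.3%) and 2, and within 5 Mb 5 of 31 (16.1%) and 2. Around *Runx2* (chr17:44495987-44814797) they were 29 of 395 (7.34%) and 0 within 20 Mb. Each of the 20 Mb windows held 1 gene called after adjustment, *Tdg-ps2* near *Med23* and *Snora78* near *Runx2*. Chromosome 10 as a whole had 14 of 613 genes (2.28%) without overlap in 12 mice, the highest share of any chromosome. Its share at an unadjusted p under 0.05 was 11.1%, below those of chromosomes X (14.7%), 13 (13.8%) and 3 (12.2%). The crosses held different numbers of *Xist*-positive mice, whose part in the count on X was not tested. With the mean log2(FPKM + 1) of the skeletal muscle list as a covariate, the share within 20 Mb of *Med23* was 8.76%, and that of all tested genes 6.09%.

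Several named genes lie in this part of chromosome 10, although they were picked after their values were seen. *Akap7*, which encodes a protein kinase A anchoring protein, lies at chr10:25169090-25299217, beside *Med23*, and had 4.68, 3.90 and 4.28 FPKM in the control mice and 5.65, 6.27 and 6.29 FPKM in the WT mice (difference -0.42, limma adjusted p = 0.351). *Sesn1*, a stress-induced gene of TORC1 inhibition at chr10:41810574-41908436, had 28.7, 25.1 and 28.3 FPKM in the control mice and 38.9, 38.5 and 38.2 FPKM in the WT mice (difference -0.48, limma adjusted p = 0.216). *Cdc40*, a splicing factor gene at chr10:40831621-40883143, had 5.83 to 8.46 FPKM in the control mice and 9.48 to 10.7 FPKM in the WT mice. None of the 3 overlapped between the crosses, and none passed the adjusted threshold. *Raet1d* (chr10:22361861-22374143), *Amd2* and *Tdg-ps2* lie in the same 20 Mb.

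**Figure D5:**
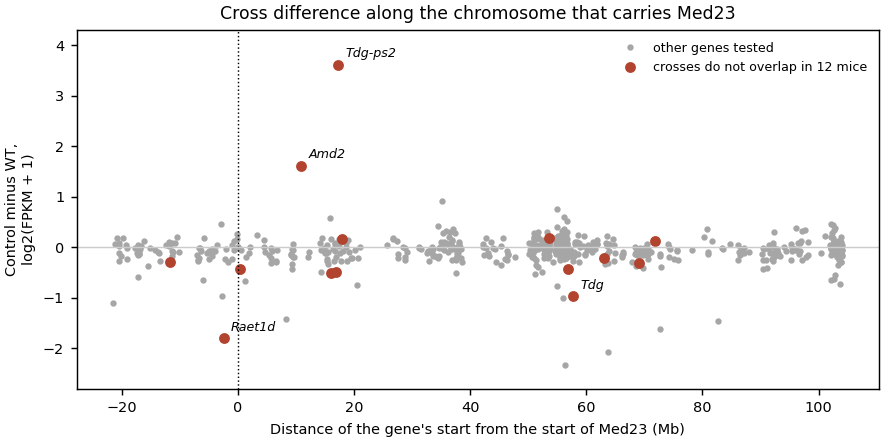
Difference between normal mice of the crosses (control minus WT, log2(FPKM + 1) scale) against the distance of a gene's start from the start of *Med23* in Mb, with a point per tested gene of chromosome 10. Red points are genes whose crosses do not overlap over 12 mice, and *Tdg-ps2* stands highest at a difference of 3.62.

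The gene lists chosen to describe cell types and processes gave no call. Of their 463 tested members, 0 had an adjusted p under 0.05 with limma, and 90 (19.4%) had an unadjusted p under 0.05 against 9.45% of all genes. The lists were chosen with earlier results of these data known, so that this share is not an independent result. The ordinary unpaired test called *Tdg-ps2* and no list member. Skeletal muscle genes made up 17 of the 90, out of 18 tested members, and all 17 were higher in WT mice. The median difference of this list was -2.43. Without WT mouse 3, 8 of its members had an unadjusted p under 0.05. With the ordinary unpaired test 2 did, while 1007 of all tested genes had such a p. The parvalbumin gene *Pvalb*, which marks fast muscle fibres, had 0.918 to 2.45 FPKM in the control mice and 5.91 to 15.6 FPKM in the WT mice (difference -2.04, limma adjusted p = 0.178). Control and WT mice were apart for *Pvalb*, which was not so for *Acta1*. The summed muscle level was 33.2 to 1645 FPKM in the control mice and 2259.6 to 6734 FPKM in the WT mice. Each list below was therefore also fitted with the mean log2(FPKM + 1) of the muscle list as a covariate. Since the summed levels did not overlap between the crosses, this fit cannot tell muscle content and cross apart.

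Bone matrix genes were, on the median, higher in the control mice. Of all 12606 tested genes, 5059 had a positive difference. At an unadjusted p under 0.05, 2.24% of all tested genes were higher and 7.21% lower in the control mice. Of 18 osteoblast matrix genes, 15 had a positive difference, 9 of them higher and 1 lower in the control mice at an unadjusted p under 0.05, and the list's median was 0.38 against -0.03 over all genes. *Sparc* (difference 0.38), *Alpl*, the alkaline phosphatase gene of mineralisation (0.47), *Serpinf1*, whose product limits vessel growth and aids mineralisation (0.45), and the collagen chaperone gene *Serpinh1* (0.33) were among the 9, at limma adjusted p-values of 0.381 to 0.485. The exception was *Omd*, at 271, 241 and 247 FPKM in the control mice and 300.1, 288 and 336 FPKM in the WT mice. *Spp1* and *Postn*, the periostin gene, had differences of -0.21 and -0.02 and overlapped. Under the ordinary unpaired test, 3 members of the list were higher and 1 lower in the control mice at an unadjusted p under 0.05. With the muscle covariate the list's median was 0.17 and 1 member was higher at an unadjusted p under 0.05. With 1 mouse left out, 2 to 12 were, with 2 without control mouse 2 or WT mouse 1, 3 without WT mouse 3 and 4 without control mouse 3. In the mutant mice the median of the same list was -0.17. The lineage transcription factors had a median of 0.08, which was 0.015 without control mouse 2 and -0.03 with the muscle covariate. The 16 osteoclast genes had a median of -0.02 with 0 members at an unadjusted p under 0.05 in either direction. Without control mouse 1 it was -0.29, with 7 members higher in WT mice at that p, and with the muscle covariate 0.33, with 5 higher in control mice.

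Cholesterol synthesis genes shared one direction. For comparison, 5059 of all 12606 tested genes had a positive difference, and 282 (2.24%) were higher in control mice at an unadjusted p under 0.05. All 18 tested members had a positive difference, 8 of them at an unadjusted p under 0.05, and the median was 0.29. With the ordinary unpaired test, 2 members had such a p. *Hmgcs1*, which encodes an early enzyme of the pathway, had 28.9, 33.1 and 30.6 FPKM in the control mice and 22.3, 23.9 and 22.5 FPKM in the WT mice (difference 0.41, limma adjusted p = 0.298). The groups of this gene did not overlap. In the mutant mice the list's median was 0.51, again higher in the *Med23* cross. With the muscle covariate, however, the median in normal mice was 0.03 and 0 members had an unadjusted p under 0.05. With 1 mouse left out, 2 to 10 members did, with 2 without WT mouse 1 or 3, 3 without control mouse 2 and 4 without control mouse 3.

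Immediate early genes, which are transcribed within minutes of a stimulus, were higher in control mice in 9 of 23 members at an unadjusted p under 0.05 and lower in 0, with a median of 0.27. The shares of all tested genes at that p were 2.24% higher and 7.21% lower in control mice. *Ccn1*, a matricellular protein gene, had 67.3, 148 and 161 FPKM in the control mice and 49.2, 64.9 and 49.3 FPKM in the WT mice (difference 1.11, limma adjusted p = 0.365). *Fos*, the AP-1 subunit gene, had 32.7, 57.0 and 36.2 FPKM against 26.2, 28.6 and 24.3 FPKM, and *Dusp1*, a MAP kinase phosphatase gene, 22.4, 43.6 and 43.8 FPKM against 17.1, 25.4 and 18.0 FPKM. Of these, *Dusp1* alone overlapped. *Egr1* had 25.4 to 39.6 FPKM and 23.4 to 32.7 FPKM and overlapped as well. Under the ordinary unpaired test, 2 members of the list were higher in control mice at an unadjusted p under 0.05. With the muscle covariate the median was 0.12 and 3 members were higher in control mice at that p. With 1 mouse left out the count was 5 to 11, and it was 5 without WT mouse 1.

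Other lists were, on the median, lower in the control mice. This was also the more frequent sign over all tested genes, of which 7547 of 12606 had a negative difference. At an unadjusted p under 0.05, 909 of all tested genes (7.21%) were higher in WT mice. All 22 respiratory chain genes had a negative difference (median -0.19), 3 at an unadjusted p under 0.05, among them *Cox7c* with 1424, 1414 and 1474 FPKM in the control mice and 1819, 1638 and 2256 FPKM in the WT mice. With the muscle covariate the median was -0.05 and 0 genes had such a p, and with each library scaled to the same FPKM sum it was -0.10. The count of 3 was 0 without WT mouse 3 and 10 without WT mouse 2. Of 16 genes of fasting and lipid oxidation, 14 were negative, with a median of -0.20. Neutrophil granule genes were negative in 12 of 12 (median -0.60), 2 of them at an unadjusted p under 0.05, and control mouse 2 had the highest summed level of the 6, 876 FPKM. Without that mouse the neutrophil median was -1.02, with 9 members at such a p, without control mouse 1 it was -0.30 and without control mouse 3 -0.37. Without WT mouse 1, 5 members had such a p, and with the muscle covariate the median was -1.31, with 6. Of the 18 tested imprinted genes, 5 were higher in WT mice at an unadjusted p under 0.05 and 0 lower, with a median of -0.18. *Dlk1*, which encodes a NOTCH-like inhibitor of differentiation, had 22, 23.6 and 24.4 FPKM in the control mice and 30.2, 32.8 and 45.0 FPKM in the WT mice (difference -0.59, limma adjusted p = 0.351), and *Rian*, a non-coding RNA gene of the same cluster, had 53.5, 58.7 and 60.1 FPKM against 69.5, 76.7 and 104 FPKM. These were apart between the crosses, whereas *Igf2* had 2023 to 2090.4 FPKM and 1941 to 2191 FPKM (difference 0.00). With the muscle covariate the median of the imprinted list was -0.26. It was -0.075 without control mouse 1, -0.10 without WT mouse 3 and -0.095 with the same FPKM sum in each mouse, and 2 members had such a p without control mouse 3 or without WT mouse 2.

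Antigen presentation genes and genes known to differ between mouse strains gave mixed values. Of 21 tested antigen presentation genes, 14 had a positive and 7 a negative difference (median 0.12). At an unadjusted p under 0.05, 2 were higher and 1 lower in control mice, against 2.24% and 7.21% of all tested genes. The median was -0.17 with the muscle covariate and -0.004 without control mouse 2. *H2-K1*, a class I gene on the chromosome of *Runx2*, had 66.8, 76.7 and 60.2 FPKM in the control mice and 49.1, 48.2 and 50.8 FPKM in the WT mice (difference 0.45, limma adjusted p = 0.329). *H2-Aa*, a class II gene of antigen-presenting cells, had 9.06, 11.3 and 9.79 FPKM against 14.6, 15 and 18.1 FPKM (difference -0.61, limma adjusted p = 0.292). Neither overlapped. The list of 4 tested substrain genes had a median of 0.41, with *Ide* and its neighbour *Fgfbp3* higher in control mice at an unadjusted p under 0.05 and 1 gene higher in WT mice. Without the filter on low values the median was 0.01, with 2 genes in each direction. *Fgfbp3*, which encodes a carrier of fibroblast growth factors, had 5.20, 4.69 and 4.3 FPKM in the control mice and 1.78, 2.69 and 2.92 FPKM in the WT mice.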

How the data were processed

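Total RNA of calvaria was sequenced in 12 mice, and the deposited FPKM per RefSeq transcript were the authors' values. The submitters' processing notes name Bowtie 0.12.8 and mm10, and the counting tool is not given in the sources used here. FPKM were summed per gene symbol. Of 30411 transcripts, 29835 were matched to NCBI's GRCm38 gene table, 180 to GENCODE M21 and 396 to neither. No counts were used. Genes at 1 FPKM or more in at least 3 of the 6 normal mice were fitted on log2(FPKM + 1), pseudocount 1, by limma 3.58.1 in R 4.3.3 with a mean-variance trend and Benjamini-Hochberg adjustment. Mutant mice of both crosses were fitted likewise. Python 3.11.15 was used for the rest, and the scripts were tested on simulated data. The labels do not say whether replicates were separate litters. The limma p-values set the difference between the crosses against the spread between mice of the same cross, drawn toward a trend over all genes. The cross itself, and any batch shared with it, was not replicated.

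Genes named were the 25 most abundant, the 20 most variable within a cross (mean of at least 5 FPKM), the 15 largest differences per direction that passed the test or, with fewer than 5, the 10 of smallest p, and members of 36 lists. The mice, genes and lists were chosen with earlier results of these data known. Alternatives covered the pseudocount (0.1), filter, scaling, mice in the fit, *Xist* and muscle covariates, replicate block, ordinary unpaired test, choice of transcript, each mouse left out and, added after the data were seen, near-identical copies added up. A few genes of the lists are not reported here.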

Additional observations from a re-analysis of the deposited data

Results flagged for a closer look

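In 5 of the 36 gene lists the difference between the crosses had one sign in all normal mice and the opposite sign in all mutant mice, since the summed levels of the groups did not overlap. The share of all genes that meet this rule was not counted. Over all tested genes, 48.4% had the same direction in both comparisons, whether or not groups overlapped. The differences between normal and mutant mice were not tested, and the mutants also differ in genotype. Values are median differences on the log2(FPKM + 1) scale, control minus WT and then *Med23*-deleted minus *Runx2*+/-. For the osteoblast transcription factors, they were 0.082 (0.015 without control mouse 2) and -0.19, and their summed level was 516 to 583 FPKM in control, 493 to 515 FPKM in WT, 477 to 519 FPKM in *Med23*-deleted and 534 to 586 FPKM in *Runx2*+/- mice. Cartilage genes had 0.27 (-0.01 without control mouse 1) and -0.38. Their sum was 296 to 340 FPKM in control mice and 195 to 287 FPKM in WT mice. For the skeletal muscle list the medians were -2.43 and 3.33, with sums of 710 to 4919 FPKM in *Med23*-deleted and 34.0 to 228 FPKM in *Runx2*+/- mice. Genes of fasting and lipid oxidation had -0.20 and 0.20. The respiratory chain had -0.19 and 0.24, and its sum was 9278 to 10136 FPKM in control and 10220.4 to 13413 FPKM in WT mice. With the muscle covariate, the normal-mouse medians of the transcription factor, lipid oxidation and respiratory chain lists were -0.03, -0.05 and -0.05.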

How the results depend on the processing

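The 5 calls between normal mice became 1 when 1 FPKM was asked in all 6 mice, 8 with all 12 mice in 1 fit, 3 with *Xist* and 2 with muscle as a covariate, 1 with the ordinary unpaired test and 3 with near-identical copies added up, an alternative chosen after the data were seen, under which the *Tdg* difference reversed to 0.20. With 1 mouse left out they numbered 3 to 10, with 10 without control mouse 1 and 3 without control mouse 3 or WT mouse 2. *Tdg-ps2* stayed called in 16 of 16 alternatives that tested it, NM_021304 in 15 of 17, *Snora78* in 15 of 17, NM_010400 in 8 of 17 and *Tdg* in 6 of 18. All but *Tdg* were tested through 1 cross alone, so that a difference was built into their selection in most of these fits. The fit with 1 FPKM in all 6 mice did not test them, nor did that with copies added up test *Tdg-ps2*. The 1191 genes at an unadjusted p under 0.05 became 768 with the muscle covariate and 762 to 1451 with 1 mouse left out, with 762 without WT mouse 1 and 765 without WT mouse 3. The same numbers in both crosses did not pair the mice (r of deviations -0.10, 0.26 and 0.09), and with the replicate block 3 genes were called and 1837 had such a p. Scaling to the same FPKM sum moved the median of all genes from -0.03 to 0.04, with 3 calls higher in control and 1 in WT mice. The mutant comparison, under its own filter, called 69 genes, 30 without a filter and 13 to 125 with 1 mouse left out, with 125 without *Med23*-deleted mouse 2 and 13 without *Runx2*+/- mouse 1. Of the 20 most variable genes, 12 were shared under a pseudocount of 0.1 and 12 to 19 with 1 mouse left out. The share near *Med23* at a p under 0.05 was 8.76% with the muscle covariate and 11.7% to 19.7% with 1 mouse left out. The cartilage median was -0.01 without control mouse 1. With 3 mice per cross, no counts and few fragments behind values near 1 FPKM, small differences were not detectable.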
